A study of Mus musculus with 12 samples.

Results

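The collagen genes encode the chains of the collagens, the triple-helical proteins of the extracellular matrix. They were taken as every gene whose symbol is Col, a number, the letter a and a number, and 44 of the 22180 genes tested met this rule. Each was represented by its brightest transcript cluster, a set of probes for 1 transcript unit on the array, so no expression value entered the choice of genes beyond the choice among clusters of the same gene. By class, 11 encode fibrillar chains, 6 chains of the basement membrane network, 6 chains of beaded filaments, 9 FACIT chains that sit on the surface of fibrils, 4 transmembrane chains, 3 short-chain network chains and 2 multiplexins. Col7a1 of the anchoring fibrils, Col26a1 and Col28a1 complete the set.

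Collagen chains are hydroxylated and folded into triple helices inside the cell, secreted as procollagens, trimmed and assembled into fibrils or networks. Lysyl oxidases, the family of LOXL2, then oxidise lysines of collagen and elastin, which starts the cross-links that stiffen the matrix. In the early mouse embryo, type IV collagen is laid down in the basement membranes made by endoderm, while fibrillar collagens are typical of mesenchyme and cartilage.

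The study measured RNA of E14 mouse embryonic stem cells on Affymetrix arrays, with 3 arrays in each of 4 groups. The groups were shLOXL2 cells (a short hairpin RNA against LOXL2) with RA at day 1, shLOXL2 cells without RA at day 0, shCT cells (a control hairpin) with RA at day 1 and shCT cells without RA at day 0. All 4 groups had been transduced with a hairpin construct, RA was read as retinoic acid, and the question, by the title, is which genes depend on LOXL2 while RA makes the cells differentiate. No group was cultured for 1 day without RA, so RA and a day of culture cannot be told apart, and separate cultures are not named for the arrays of a group, so the spread behind each p-value may be technical. Each of the sets of 3 values below follows the replicate numbers 1, 2 and 3 of the labels.

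The medians of the 12 arrays ran from 4.58 to 4.68 in log2 units, and any pair of arrays had a correlation of 0.939 to 0.985 over clusters. The 2 clusters that cover Loxl2 stood at 60% and 65% of the shCT level in shLOXL2 cells on average (limma adjusted p = 0.28 and 0.543), and both are also annotated to the predicted gene Gm21451. The adjusted p-values of these clusters are over all 41345 clusters and not over genes. With RA they stood at 53.4% and 47.2%, but without RA at 67.5% and 89.6% (adjusted p = 1 for each), so the second cluster was barely lower in shLOXL2 cells without RA (-0.16 ± 0.22 log2 units). Of 9 measured RA target genes, 9 rose in each construct, among them Cyp26a1, which degrades retinoic acid, by 4.29 ± 0.16 (SE) log2 units in shLOXL2 and 4.09 ± 0.16 in shCT cells. The pluripotent cell markers differed in signal. Tdgf1, a Nodal co-receptor, was at 10.7 to 11.6 and Zfp42, a stem cell zinc finger gene, at 9.9 to 10.8. Esrrb was at 6.61 to 7.95 and Dppa5a at 5.09 to 5.77. Of 8 such markers 4 fell with RA on average, beside 4.8% of all genes called lower. The number of arrays limits the precision of every value.

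Most collagen genes gave dim signals. The mean log2 signal over 12 arrays was below the median of all genes (5.06) for 27 of 44 collagen genes, and the median of the collagen genes was 4.80. No background level was set, so how much of a dim signal is background was not tested. Background in a dim signal makes a true difference look smaller, but an estimate from few arrays can err in either direction. Levels of different clusters depend on their probes, so these counts describe signals and not RNA amounts, and no gene is ranked by its level. Among arrays of a group, the collagen genes varied about as much as other genes, with a median residual SD of 0.184 log2 units against 0.199 over all genes. Col4a1 and Col4a2, which encode the main chains of the basement membrane network, were the most variable, with residual SDs of 0.514 and 0.494, and 2.06% and 2.39% of all genes had as large a spread. At the other end were Col6a4 (0.0838), a chain of beaded filaments, and the fibrillar chain Col11a1 (0.0929).

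RA, averaged over both constructs, raised 2 of 44 collagen genes past the limma threshold of an adjusted p of 0.05 and lowered none. They were Col6a5, an alpha chain of type VI collagen (1.35-fold), and Col2a1, the main fibrillar chain of cartilage (1.26-fold). This is 4.55% of the collagen genes, beside 10.3% of all genes, and 2 higher stand beside 5.52% of all genes called higher. The count of 2 ran from 0 to 3 with 1 array left out, and a difference between these shares was not tested. At an unadjusted p of 0.05 there were 5, or 11.4%, against 22.2% of all genes. The other 3 were Col4a5, Col13a1 and Col6a4, and among these only Col6a4 was lower. This count of 5 was 8 without replicate 1 of shCT without RA, and 3 without replicate 3 of shLOXL2 without RA or replicate 3 of shCT without RA.

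Col2a1 had log2 signals of 5.52, 5.97 and 5.55 in shLOXL2 cells with RA and 5.51, 5.47 and 5.50 without RA. In shCT cells they were 5.90, 5.95 and 5.75 with RA and 5.42, 5.38 and 5.34 without RA. Every array with RA lay above every array without RA of the same construct, but in shLOXL2 cells replicates 1 and 3 with RA were barely above the untreated arrays and replicate 2 carried most of the difference. The RA difference was 0.34 ± 0.09 log2 units on average (SE, adjusted p = 0.0358 by limma), 0.19 ± 0.13 in shLOXL2 cells (0.587) and 0.49 ± 0.13 in shCT cells (0.0592). The difference between those 2 values was -0.30 ± 0.19 (adjusted p = 1). With 1 array left out, the average ran from 0.26 to 0.38 and lost its call in 7 of 12 fits. Those were the fits without replicate 2 of shLOXL2 with RA, replicates 2 and 3 of shLOXL2 without RA, replicates 1 and 2 of shCT with RA, and replicates 2 and 3 of shCT without RA (adjusted p 0.0574 to 0.0878).

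Col6a5 had log2 signals of 5.29, 4.95 and 5.12 in shLOXL2 cells with RA and 4.93, 4.52 and 4.62 without RA. In shCT cells they were 5.12, 5.09 and 4.84 with RA and 4.85, 4.52 and 4.34 without RA. The groups did not overlap in shLOXL2 cells, while in shCT cells replicate 3 with RA lay just below replicate 1 without RA. The RA difference was of like size in both constructs, 0.43 ± 0.16 in shLOXL2 and 0.45 ± 0.16 in shCT cells (limma adjusted p = 0.221 and 0.168), and 0.44 ± 0.11 on average (adjusted p = 0.0262). The average ran from 0.38 to 0.51 with 1 array left out, and the call was lost in 8 of 12 fits. Those were the fits without replicates 1 and 3 of shLOXL2 with RA, replicates 2 and 3 of shLOXL2 without RA, replicates 1 and 2 of shCT with RA, and replicates 2 and 3 of shCT without RA (adjusted p 0.0514 to 0.0756). Both calls were also lost after a further quantile normalization, after centring arrays on their medians and with p-values adjusted over all transcript clusters. The adjusted p-values there were 0.115, 0.083 and 0.0759 for Col2a1 and 0.0518, 0.0567 and 0.0659 for Col6a5, and both differences stayed positive.

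The promoter of Col6a5, from 250 bases before to 50 bases after the annotated start, is shown because it belongs to the collagen gene with the smallest p for RA on average. RefSeq also places the outermost start of the gene 1820 bases upstream of the start used here, and that region was not searched. It is taken from RefSeq on GRCm38.p6, chr9:105960594-105960893, minus strand, written 5′ to 3′ with the GC box in capitals.
Col6a5: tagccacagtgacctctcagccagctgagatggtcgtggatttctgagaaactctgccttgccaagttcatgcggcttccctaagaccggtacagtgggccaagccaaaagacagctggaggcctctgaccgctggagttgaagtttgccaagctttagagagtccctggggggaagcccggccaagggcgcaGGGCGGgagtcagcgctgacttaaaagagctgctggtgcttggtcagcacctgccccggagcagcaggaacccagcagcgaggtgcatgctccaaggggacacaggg
The letters searched on both strands were the CCAAT box, the GC box with the letters GGGCGG, the TATA box with the letters TATAAA, and the nuclear receptor hexamer AGGTCA. The direct repeat of that hexamer to which retinoic acid receptors can bind was searched as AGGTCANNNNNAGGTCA, and each match of it overlaps matches of the hexamer. The window held 1 GC box and 1 hexamer, left in lower case, and none of the others. Windows were at hand for 35 of 44 collagen genes, Col2a1 not among them. GGGCGG was found for 22 of the 35 genes (62.9%) and in 35.7% of all 32851 windows, CCAAT for 13 (37.1%) against 37.4%, and AGGTCA for 8 (22.9%) against 16.3%. The direct repeat was found in 3 of all windows and in 0 of the collagen windows. TATAAA was present for 5 collagen genes, Col3a1, Col10a1, Col11a2, Col13a1 and Col17a1 (14.3%, against 13.6% of all windows). Such matches describe letters only and are not evidence of binding.

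**Figure D1:**
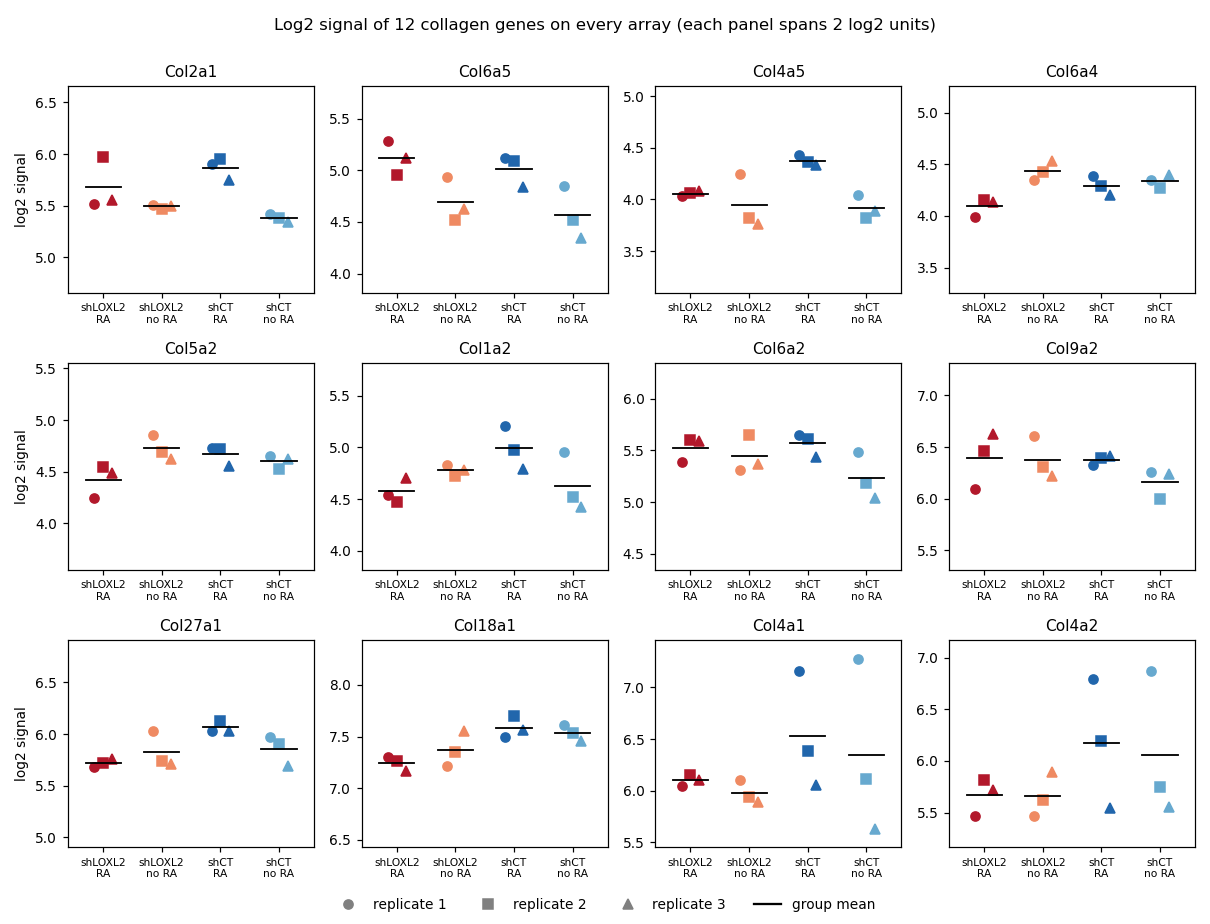
Log2 signal (y axis) of 12 collagen genes on each of the 12 arrays, by group (x axis), with a marker shape per replicate number and a bar at the group mean; every panel spans 2 log2 units. Col2a1 lay between 5.75 and 5.95 in shCT cells with RA, above 5.34 to 5.42 without RA, and both shCT arrays numbered 1 stood apart for Col4a1 (7.16 and 7.28).

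Within single constructs no collagen gene passed for RA in the main fit, which left arrays unpaired. In shLOXL2 cells limma called 0 of 44, beside 3.46% of all genes, and 3 (6.82%) had an unadjusted p under 0.05, against 14.4% of all genes. In shCT cells it called 0 of 44, beside 4.25%, and 5 (11.4%, each higher with RA) had an unadjusted p under 0.05, against 16.5% in either direction and 8.34% higher. This count of 5 depended on single arrays: it was 10 without replicate 1 of shCT without RA, 3 without replicate 2 and 2 without replicate 3 of that group, and 2 without replicate 1 or replicate 2 of shCT with RA. The deviations of same-numbered arrays with and without RA correlated at 0.558, 0.248 and 0.216 in shLOXL2 and at 0.363, 0.039 and 0.631 in shCT cells. Only the shLOXL2 numbers were taken as paired, which is uncertain, and the fit behind the counts above did not pair arrays. With the replicate number as a fixed block within constructs, Col6a5 passed in shLOXL2 cells (0.43, adjusted p = 0.0438), and with a random block Col6a4 passed instead (-0.34, adjusted p = 0.0429). In shCT cells the fixed block called Col2a1 and Col6a5, beside 1800 of all 22180 genes. The random block called Col2a1, Col4a5 and Col6a5 there, beside 2047.

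Col6a4, a chain of beaded filaments, had the smallest p in shLOXL2 cells. Its log2 signals were 3.99, 4.15 and 4.14 in shLOXL2 cells with RA and 4.35, 4.43 and 4.53 without RA, against 4.38, 4.29 and 4.20 in shCT cells with RA and 4.34, 4.27 and 4.39 without RA. All 3 shLOXL2 arrays with RA lay below the 9 other arrays. The RA difference was -0.34 ± 0.11 in shLOXL2 cells (limma adjusted p = 0.14) and -0.05 ± 0.11 in shCT cells (0.898), and the difference between them was -0.30 ± 0.16 (adjusted p = 1). Col5a2, the fibrillar chain that takes part in starting type I fibrils, gave 4.24, 4.55 and 4.48 in shLOXL2 cells with RA and 4.86, 4.69 and 4.62 without RA. These groups did not overlap (-0.30 ± 0.12, limma adjusted p = 0.277), whereas in shCT cells, at 4.73, 4.72 and 4.56 with RA and 4.66, 4.52 and 4.62 without RA, they did.

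Col4a5, whose chain joins the network of the kidney filter and whose human mutations cause Alport syndrome, was closest to the threshold in shCT cells after Col2a1. It had log2 signals of 4.03, 4.06 and 4.08 in shLOXL2 cells with RA and 4.25, 3.82 and 3.77 without RA. In shCT cells it had 4.43, 4.36 and 4.33 with RA and 4.04, 3.82 and 3.89 without RA. The shCT arrays with RA were above all others, and the shLOXL2 groups overlapped through replicate 1 without RA. The RA difference was 0.11 ± 0.14 in shLOXL2 cells (limma adjusted p = 0.801) and 0.46 ± 0.14 in shCT cells (0.0836), and without replicate 1 of shLOXL2 without RA the average reached 0.36 (adjusted p = 0.0133), against 0.28 (0.0838) on all arrays.

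By direction alone, 17 of 44 collagen genes were higher with RA in shLOXL2 cells (38.6%, against 48.1% of all genes, median difference -0.05) and 35 of 44 in shCT cells (79.5%, against 50.2%, median 0.11). The number of signs in shCT cells moved with the scaling. Centring arrays on their medians moved the median of all genes for RA in shCT to -0.10, and the collagen genes then had a median of 0.00 with 21 of 44 lower. After a further quantile normalization 17 were lower, and the medians were 0.04 for the collagen genes and -0.01 for all genes. The collagen median thus lay above that of all genes under each of the 3 scalings. In shLOXL2 cells the median turned to 0.07, with 11 lower, without replicate 1 with RA. Groups that did not overlap were counted too. In shLOXL2 cells 3 genes lay wholly higher with RA (Col2a1, Col6a5 and Col11a1) beside 10.3% of all genes, and 3 wholly lower (Col6a4, Col5a2 and Col1a2) beside 9.32%. In shCT cells 6 lay wholly higher (Col2a1, Col4a5, Col27a1, Col6a6, Col9a2 and Col9a3), beside 10.7%.

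**Figure D2:**
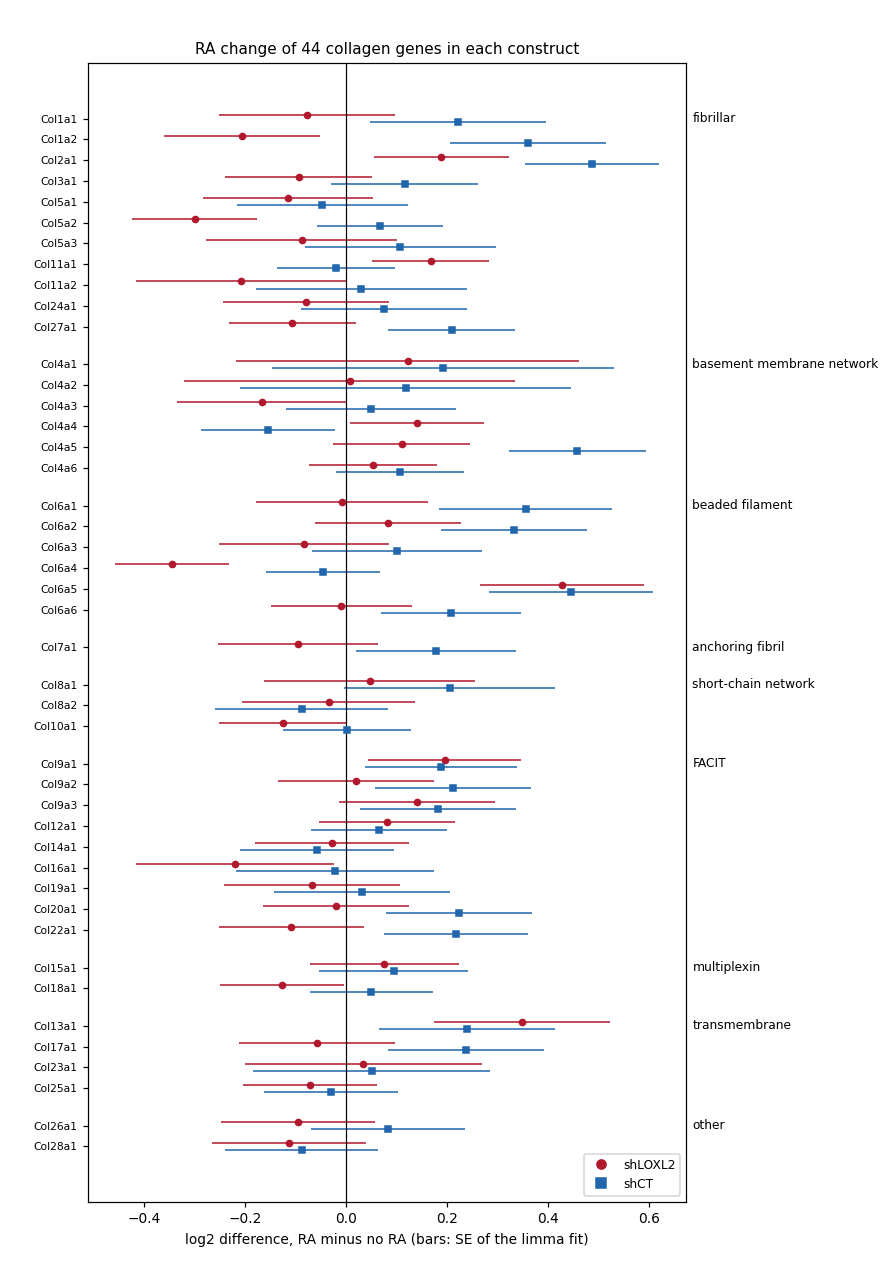
RA difference of the 44 collagen genes (x axis, log2 units, RA minus no RA; bars are SE of the limma fit) in shLOXL2 cells (circles) and shCT cells (squares), ordered by class down the page. The values ran from -0.34 (Col6a4) to 0.43 (Col6a5) in shLOXL2 and from -0.15 (Col4a4) to 0.49 (Col2a1) in shCT cells. None passed the threshold within a construct in this fit, which left arrays unpaired.

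No class had more than 1 member past the threshold for RA. On average of both constructs the medians of the RA difference were 0.01 for the 11 fibrillar genes (-0.12 to 0.34), 0.07 for the 6 basement membrane genes (-0.06 to 0.28) and 0.14 for the 6 beaded filament genes (-0.20 to 0.44). The 9 FACIT genes had a median of 0.07 (-0.12 to 0.19) and the 4 transmembrane genes 0.07 (-0.05 to 0.29). Over all 44 the median was 0.05, against -0.01 over all genes. Among the transmembrane genes the largest value was that of Col13a1, a chain found at cell contacts and the neuromuscular junction (0.29 ± 0.12, limma adjusted p = 0.171).

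The rises of Col2a1 and Col6a5 were set beside markers of the cells in which such collagens are usual. Of 8 measured cartilage and mesenchyme markers, 1 rose with RA on average (beside 5.52% of all genes), Acan, the cartilage proteoglycan (0.52 ± 0.11, limma adjusted p = 0.00895). Their summed linear signal was 213 to 237 and 199 to 231 in shLOXL2 cells with and without RA, and 222 to 244 and 196 to 255 in shCT cells with and without RA, so the groups overlapped. Of 9 measured fibroblast and feeder cell markers, 2 rose, Pdgfrb (1.28 ± 0.11, adjusted p = 5.44e-06) and Pdgfra (0.94 ± 0.24, 0.0234), both receptors for platelet-derived growth factors. The list as a whole did not rise, with a median of 0.01. Thy1 (-0.48 ± 0.15, limma adjusted p = 0.0551) and S100a4 (-0.28 ± 0.09, 0.0733) were lower, short of the threshold. Pdgfra is also on the list of 10 primitive and parietal endoderm markers. Of those 2 rose, Pdgfra and Gata6 (1.63 ± 0.17, limma adjusted p = 3.5e-05). The summed signal of the fibroblast and feeder cell markers was 395 to 477 and 292 to 339 in shLOXL2 cells with and without RA, and 358 to 469 and 285 to 384 in shCT cells with and without RA. Such a sum weighs the brightest genes most. Of these markers, the matrix genes Dcn (3.16 to 3.85), Lum (2.50 to 3.04) and Postn (3.17 to 3.91) were dim on every array. Others were brighter, with Pdgfra at 5.73 to 7.57, Pdgfrb at 5.29 to 7.02, Acta2 at 5.55 to 6.53 and Tagln at 4.92 to 5.81. No marker was at 0, and these levels depend on the probes. The part of cartilage, mesenchyme or fibroblast-like cells in the collagen values was not tested. In such bulk samples fewer cells of a type and less RNA per cell cannot be told apart.

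Knockdown of LOXL2 changed no collagen gene past the threshold. Limma called 0 of 44 with RA and 0 of 44 without RA, beside 0% of all genes in each, and 0 of 44 on average of both, beside 0.0541%. At an unadjusted p of 0.05, 5 collagen genes (11.4%) were called with RA, each lower in shLOXL2 cells, beside 4.96% of all genes in either direction and 2.65% of all genes lower. This count of 5 was 2 without replicate 3 of shLOXL2 with RA or without replicate 1 or 2 of shCT with RA, and 3 without replicate 1 of shLOXL2 with RA. Without RA there were 0, beside 4.68%, and on average 1 (2.27%), beside 6.72%. The average gave 3 without replicate 1 of shLOXL2 without RA or replicate 2 of shCT without RA, 5 without replicate 3 of shCT without RA, and 2 without replicate 3 of shCT with RA. Without RA the count was 1 without replicate 1 or replicate 3 of shCT. The 95% interval of the average knockdown difference lay within 0.5 log2 units of 0 for 42 of 44 collagen genes, the exceptions being Col4a1 and Col4a2, and within 1 log2 unit for all 44. Intervals within a single RA state were wider. They lay within 0.5 log2 units for 23 of 44 genes with RA and 32 of 44 without RA, and within 1 log2 unit for 42 in each.

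Col18a1, the basement membrane multiplexin from which endostatin is cut, was the 1 gene under an unadjusted p of 0.05 on average. It had log2 signals of 7.30, 7.27 and 7.17 in shLOXL2 cells and 7.50, 7.70 and 7.56 in shCT cells, both with RA. Without RA they were 7.22, 7.35 and 7.55 in shLOXL2 cells and 7.61, 7.54 and 7.46 in shCT cells. With RA all shLOXL2 arrays lay below all shCT arrays, and without RA replicate 3 of shLOXL2 lay among the shCT arrays. The knockdown difference was -0.34 ± 0.12 with RA (limma adjusted p = 0.972), -0.16 ± 0.12 without RA (1) and -0.25 ± 0.09 on average (0.511), with a 95% interval of -0.44 to -0.07. It ran from -0.30 to -0.21 with 1 array left out.

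The others with RA were Col27a1, a fibrillar chain of cartilage, Col1a2, a chain of type I collagen, Col4a5 and Col22a1, a FACIT chain of tissue junctions. Col27a1 had 5.68, 5.72 and 5.75 in shLOXL2 cells with RA, against 6.03, 6.13 and 6.03 in shCT cells with RA. Without RA it had 6.03, 5.74 and 5.71 in shLOXL2 cells and 5.97, 5.90 and 5.69 in shCT cells. The groups were apart with RA (-0.35 ± 0.12, limma adjusted p = 0.972) and overlapped without RA (-0.03 ± 0.12). Col1a2 had 4.54, 4.47 and 4.71 in shLOXL2 cells with RA, against 5.21, 4.98 and 4.79 in shCT cells with RA, a difference of -0.42 ± 0.15 (adjusted p = 0.972). Without RA it had 4.83, 4.72 and 4.78 in shLOXL2 cells and 4.95, 4.52 and 4.42 in shCT cells, and these overlapped (0.15 ± 0.15). The dimmer of the 2 Col1a2 clusters gave -0.17 with RA and 0.03 without RA.

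With RA, 34 of 44 collagen genes were lower in shLOXL2 than in shCT cells (77.3%, against 48.5% of all genes), with a median of -0.13, against 0.01 over all genes. Of these, 10 lay wholly below the shCT arrays, beside 5.88% of all genes: Col1a1, Col1a2, Col4a5, Col5a2, Col6a4, Col18a1, Col19a1, Col20a1, Col22a1 and Col27a1. A single array decided this tilt. Replicate 1 of shLOXL2 with RA had the lowest median over the collagen genes, 4.58, beside 4.86 and 4.78 on the other arrays of its group and 5.11, 4.96 and 4.81 in shCT cells with RA. Without it the median knockdown difference with RA was 0.01 and 21 of 44 were lower.

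Without RA, 27 of 44 collagen genes were higher in shLOXL2 cells (61.4%, against 51.7% of all genes), with a median of 0.03, and 2 lay wholly higher, Col2a1 and Col3a1, beside 4.2% of all genes. Single shCT arrays moved this too. Without replicate 1 of shCT without RA 5 of 44 were lower and the median was 0.11, and without replicate 3 of that group 24 were lower and the median was -0.02. The smallest p-values belonged to Col6a2, a chain of beaded filaments (0.21 ± 0.15), and Col9a2, a chain of the FACIT type IX collagen (0.21 ± 0.16), both with a limma adjusted p of 1. Col6a2 had log2 signals of 5.31, 5.65 and 5.37 in shLOXL2 cells and 5.48, 5.18 and 5.04 in shCT cells, and Col9a2 had 6.61, 6.31 and 6.22 in shLOXL2 cells and 6.26, 5.99 and 6.24 in shCT cells. Both genes overlapped between constructs. With RA, Col6a2 had 5.39, 5.60 and 5.59 in shLOXL2 cells and 5.65, 5.62 and 5.44 in shCT cells, and Col9a2 had 6.09, 6.47 and 6.63 in shLOXL2 cells and 6.32, 6.39 and 6.42 in shCT cells. These overlapped as well.

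**Figure D3:**
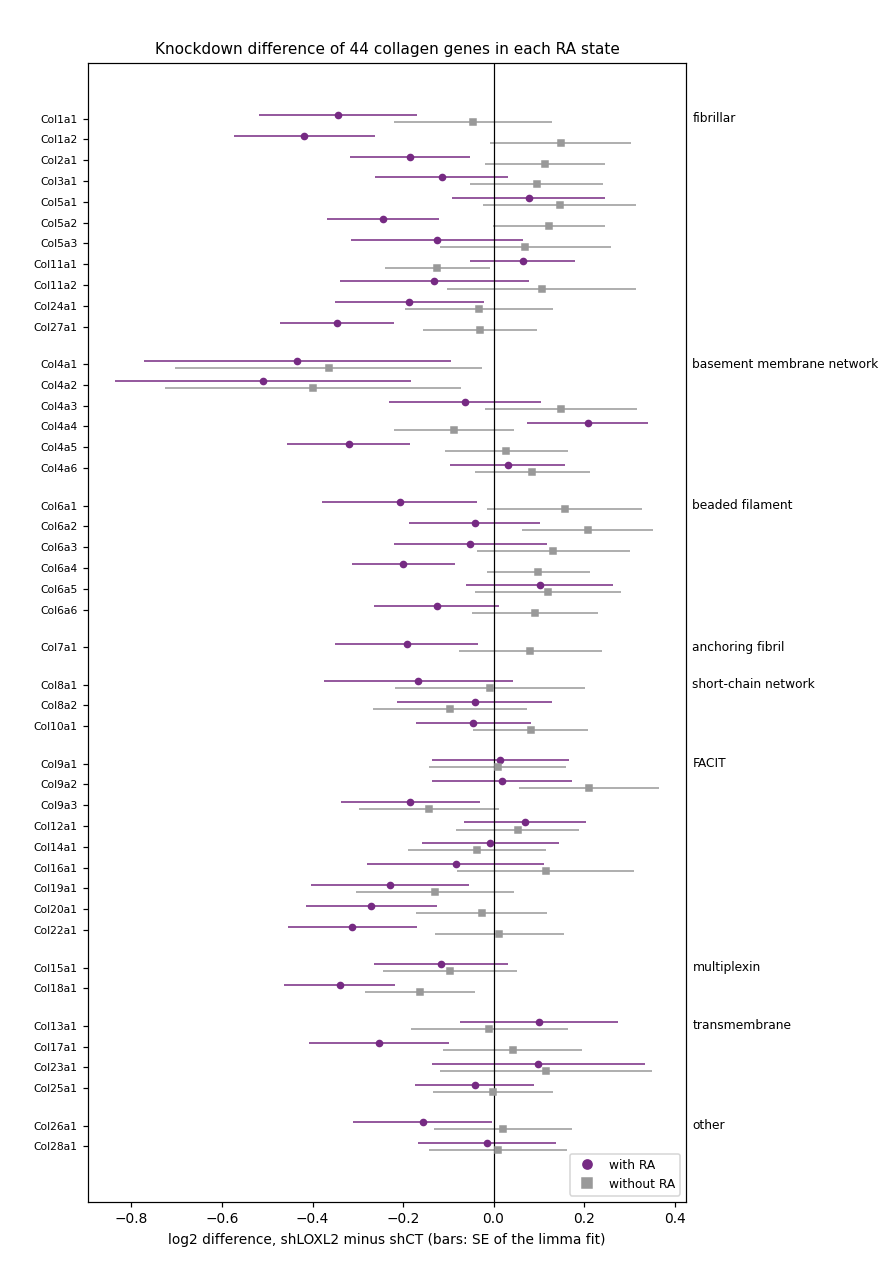
Knockdown difference of the 44 collagen genes (x axis, log2 units, shLOXL2 minus shCT; bars are SE of the limma fit) with RA (circles) and without RA (squares), ordered by class down the page. With RA 34 of 44 values lay below 0 and without RA 17, none past the threshold, and the widest bars belong to Col4a1 and Col4a2.

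The RA response did not differ past the threshold between shLOXL2 and shCT cells for any collagen gene. Limma called 0 of 44, beside 0% of all genes, and 1 (2.27%) had an unadjusted p under 0.05, Col1a2, beside 2.94%. With 1 array left out there were 0 to 3, with 0 without replicate 2 of shCT without RA or replicate 1 of shCT with RA, 3 without replicate 3 of shLOXL2 without RA, and 2 without replicate 2 of shLOXL2 with RA, replicate 1 of shCT without RA or replicate 3 of shCT with RA. The Col1a2 difference was -0.57 ± 0.22 (adjusted p = 1), from an RA difference of -0.21 ± 0.15 in shLOXL2 and 0.36 ± 0.15 in shCT cells. The RA response was lower in shLOXL2 cells for 37 of 44 collagen genes (84.1%, against 48.2% of all genes), with a median of -0.18, against 0.01 over all genes. That included 10 of 11 fibrillar genes (median -0.24), 6 of 6 beaded filament genes (-0.36 to -0.02), 5 of 6 basement membrane genes (median -0.09) and 6 of 9 FACIT genes (median -0.10). This comparison shares its arrays with those above. Without replicate 1 of shLOXL2 with RA the median was -0.03 with 27 lower, and without the 4 arrays at one end of the main axis of variation within groups it was -0.04 with 26 lower. The 95% interval lay within 0.5 log2 units of 0 for only 7 of 44 genes and within 1 for 41, so differences of moderate size were not detectable with these arrays.

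Col4a1 and Col4a2 encode the chains that form the common type IV collagen heterotrimer. Col4a1 had log2 signals of 6.04, 6.16 and 6.10 in shLOXL2 cells with RA and 6.11, 5.94 and 5.89 without RA. In shCT cells they were 7.16, 6.38 and 6.06 with RA and 7.28, 6.11 and 5.63 without RA. Col4a1 was thus steady in shLOXL2 cells and high on both shCT arrays numbered 1. Col4a2 had 5.46, 5.81 and 5.72 in shLOXL2 cells with RA and 5.46, 5.62 and 5.89 without RA. In shCT cells it had 6.79, 6.19 and 5.54 with RA and 6.87, 5.74 and 5.55 without RA, and the same 2 arrays were the highest.

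The average knockdown difference was -0.40 ± 0.24 for Col4a1 and -0.45 ± 0.23 for Col4a2 (limma adjusted p = 0.818 and 0.783). Without both shCT arrays numbered 1, an alternative chosen after seeing the data, it was -0.01 for Col4a1 and -0.10 for Col4a2. The RA differences on average were 0.16 ± 0.24 and 0.06 ± 0.23 (adjusted p = 0.774 and 0.918). Those 2 arrays also had the highest summed linear signal of 10 of 10 primitive and parietal endoderm markers. It was 1359, 1398 and 1464 in shLOXL2 cells with RA and 1035, 979 and 997 without RA, and 1979, 1417 and 1097 in shCT cells with RA and 1860, 1044 and 898 without RA. No marker was at 0, the lowest being Thbd, a surface receptor of parietal endoderm, at 4.11. The part of endoderm-like cells in the Col4a1 and Col4a2 values was not tested.

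Across the 12 arrays, which span 4 groups, Col4a1 and Col4a2 correlated at r = 0.93 (permutation p = 0.00073, adjusted 0.00365 over 5 pairs of partner chains) and rho = 0.64 (permutation p = 0.0283, adjusted 0.122). Here and below, arrays were permuted without regard to group or RA state, so differences between groups enter these p-values. The relation rests on 2 arrays. Without both shCT arrays numbered 1, the farthest from the Col4a1 median, r was 0.52. Within constructs of 6 arrays each, r was -0.25 in shLOXL2 (exact permutation p = 0.628, adjusted 0.785 over 10 such relations; rho = -0.14, p = 0.803, adjusted 1) and 0.97 in shCT cells (exact permutation p = 0.00278, adjusted 0.0278; rho = 0.94, p = 0.0167, adjusted 0.167). In shCT cells r was 0.80 over the 4 arrays without both numbered 1. Of the other pairs, Col1a1 and Col1a2, which form type I collagen, had r = 0.68 (permutation p = 0.0158, adjusted 0.0394; rho = 0.59, p = 0.0487, adjusted 0.122) and 0.42 without the 2 farthest arrays. For Col6a1 and Col6a2 r was 0.52 (adjusted p = 0.137), for Col4a3 and Col4a4 0.34 (0.343) and for Col4a5 and Col4a6 0.21 (0.517), all by permutation over 12 arrays, with rho of 0.35, 0.42 and 0.11 (adjusted p = 0.335, 0.295 and 0.736). Within constructs, Col6a1 and Col6a2 had r = -0.19 in shLOXL2 (exact permutation p = 0.725, adjusted 0.806; rho = -0.31, p = 0.564, adjusted 1) and 0.92 in shCT cells (exact permutation p = 0.0153, adjusted 0.0764; rho = 0.89, p = 0.0333, adjusted 0.167). Without the 2 arrays farthest from the Col6a1 median, both numbered 2, r in shCT was 0.96 over 4 arrays. Col1a1 and Col1a2 had r = 0.07 in shLOXL2 and 0.79 in shCT cells (exact permutation p = 0.9 and 0.0833, adjusted 0.9 and 0.278). The other type IV pairs had r of 0.33 to 0.38 in either construct (exact permutation, adjusted p = 0.785 for each).

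The type IV genes lie head to head in pairs. The promoters of Col4a1 and Col4a2 are shown because both genes were high on the same 2 arrays, and those of Col4a5 and Col4a6 beside them as a pair with an r of 0.21. Col4a3 and Col4a4 are not shown. They come from RefSeq on GRCm38.p6, each from 250 bases before to 50 bases after the annotated start, 5′ to 3′ on the strand of the gene. Capitals mark the CCAAT box and the GC box, read on either strand. Col4a1 is at chr8:11312777-11313076 (minus strand), Col4a2 at chr8:11312555-11312854 (plus strand), Col4a5 at chrX:141475169-141475468 (plus strand) and Col4a6 at chrX:141474027-141474326 (minus strand).
Col4a1: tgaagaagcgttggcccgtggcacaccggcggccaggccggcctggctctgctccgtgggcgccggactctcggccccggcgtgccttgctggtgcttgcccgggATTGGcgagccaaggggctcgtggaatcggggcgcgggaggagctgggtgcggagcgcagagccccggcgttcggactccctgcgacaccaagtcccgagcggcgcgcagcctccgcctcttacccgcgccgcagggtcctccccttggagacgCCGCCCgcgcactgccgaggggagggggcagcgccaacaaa
Col4a2: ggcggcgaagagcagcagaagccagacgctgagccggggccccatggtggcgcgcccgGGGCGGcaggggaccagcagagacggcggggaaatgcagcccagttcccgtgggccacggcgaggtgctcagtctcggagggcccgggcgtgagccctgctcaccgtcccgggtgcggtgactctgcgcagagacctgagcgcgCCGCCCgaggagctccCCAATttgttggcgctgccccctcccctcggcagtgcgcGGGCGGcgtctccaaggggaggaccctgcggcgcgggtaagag
Col4a5: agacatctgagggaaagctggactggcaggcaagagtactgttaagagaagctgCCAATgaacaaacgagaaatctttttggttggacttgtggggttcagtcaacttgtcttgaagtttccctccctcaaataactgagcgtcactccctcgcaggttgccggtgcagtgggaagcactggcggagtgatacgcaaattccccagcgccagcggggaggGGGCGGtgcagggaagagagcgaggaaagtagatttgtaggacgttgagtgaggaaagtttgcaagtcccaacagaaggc
Col4a6: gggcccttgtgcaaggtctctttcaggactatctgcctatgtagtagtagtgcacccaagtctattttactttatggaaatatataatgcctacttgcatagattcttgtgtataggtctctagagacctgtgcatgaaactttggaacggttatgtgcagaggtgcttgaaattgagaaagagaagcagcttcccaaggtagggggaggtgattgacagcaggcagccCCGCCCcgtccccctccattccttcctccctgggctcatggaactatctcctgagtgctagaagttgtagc
The annotated starts of Col4a1 and Col4a2 lie 21 bases apart on opposite strands. Each start lies downstream of the other, so the annotated genes overlap there and leave no gap between them. Their windows share 78 bases, which hold 1 GC box. The annotated starts of Col4a5 and Col4a6 lie 1343 bases apart and their windows share 0 bases. The outermost start of each of these genes in RefSeq lies 0 to 63 bases from the start used for its window. The Col4a1 window had 1 CCAAT match and 1 GC box at 74.0% G and C, and the Col4a2 window 1 and 3 at 73.7%. The Col4a5 window had 1 and 1 at 52.7%, and the Col4a6 window 0 and 1 at 48.3%, beside a median of 52.7% G and C over all windows. None of the 4 held TATAAA or AGGTCA.

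**Figure D4:**
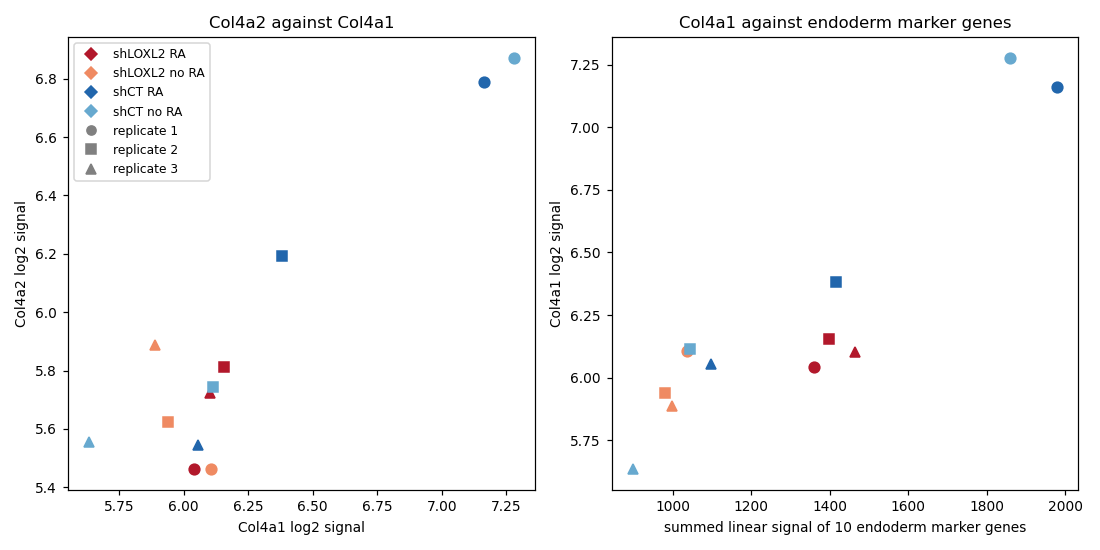
Left, Col4a2 against Col4a1 (log2 signal) on the 12 arrays; right, Col4a1 against the summed linear signal of 10 endoderm marker genes. Colours are groups and shapes replicate numbers; both shCT arrays numbered 1 (circles) lie at the upper right, with Col4a1 at 7.16 and 7.28 and marker sums of 1979 and 1860.

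Genes that process or bind collagen were described from lists of known function. The counts of these lists stand beside 10.3% of all genes called for RA on average, 5.52% higher and 4.8% lower, and in such short lists a count of 1 or 2 is not far from those shares. On average of both constructs, 4 of 17 genes for chain modification and folding rose with RA and none fell. They were P4ha3 (0.82 ± 0.14) and P4ha1 (0.54 ± 0.16), subunits of prolyl 4-hydroxylases, P3h2, a prolyl 3-hydroxylase (0.44 ± 0.11), and Fkbp14, a prolyl isomerase (0.31 ± 0.09). Of 12 genes for secretion and propeptide removal, 2 rose and 2 fell. Tll1, a procollagen C-proteinase, rose by 0.77 ± 0.09 and Sec24d, a coat protein of export vesicles, by 0.35 ± 0.08. Both enhancers of that proteinase were lower, with Pcolce2 at -1.17 ± 0.08 and Pcolce at -0.62 ± 0.10. Their limma adjusted p-values lay between 4.44e-07 (Pcolce2) and 0.0443 (P4ha1).

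Of 4 measured lysyl oxidases 1 rose, Loxl1 (0.49 ± 0.10, limma adjusted p = 0.00662). Of 9 collagen receptors, Mrc2, an endocytic receptor that takes up collagen, rose by 0.91 ± 0.13 (adjusted p = 0.000328), while the integrin chain Itga1 was at -0.56 ± 0.12 (0.00734) and the receptor kinase Ddr1 at -0.35 ± 0.09 (0.0229), and both fell. Of 14 collagen-binding matrix genes 2 fell, the basement membrane linkers Nid1 (-0.61 ± 0.08, adjusted p = 0.000338) and Nid2 (-0.51 ± 0.09, 0.0017). Of 7 collagenases and gelatinases 1 rose, Mmp9 (0.90 ± 0.10, 3.67e-05). P4ha3, Tll1, Mrc2 and Mmp9 rose, and Pcolce, Pcolce2, Nid1 and Nid2 fell, in each construct tested alone.

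**Figure D5:**
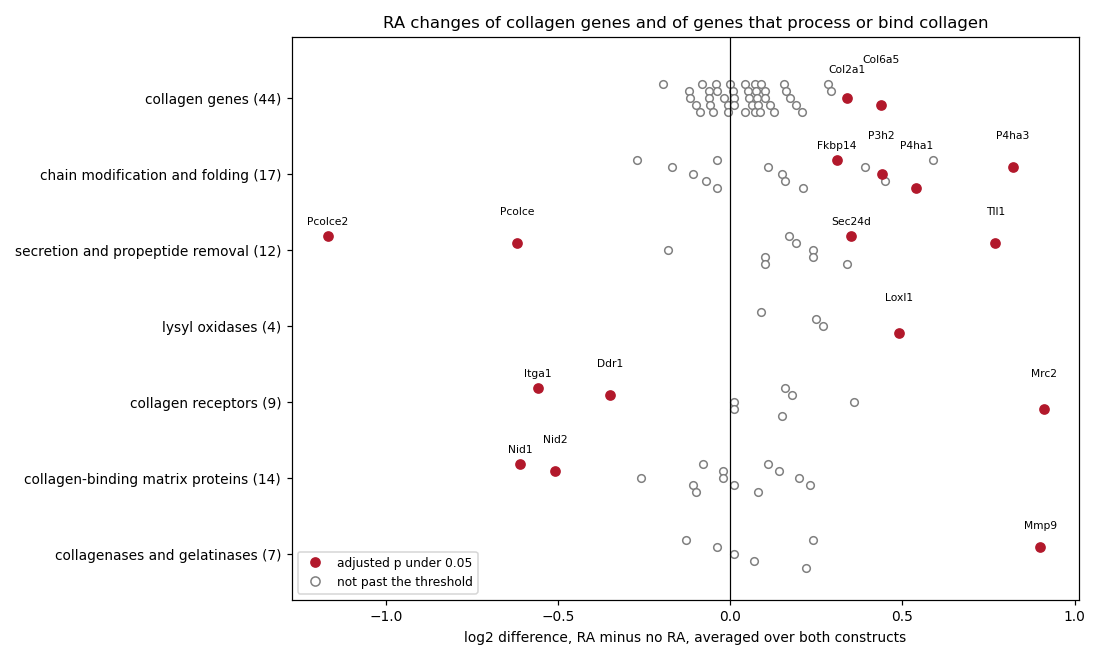
RA difference on average of both constructs (x axis, log2 units, RA minus no RA) of the 44 collagen genes and of the genes of 6 lists that process or bind collagen (rows, number measured in parentheses). Filled points passed an adjusted p of 0.05: 2 collagen genes, up to 0.44, beside genes such as Pcolce2 at -1.17 and Mrc2 at 0.91.

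Knockdown and the difference of the RA responses changed 0 genes of any of these 6 lists past the limma threshold. On average, the gene with the smallest p-value in each list was taken. These were Ddr2, a collagen receptor kinase (0.55 ± 0.12, adjusted p = 0.207), Mmp2, a gelatinase (-0.48 ± 0.12, 0.26), P4ha1 (-0.52 ± 0.16, 0.405), Bmp1, a procollagen C-proteinase (-0.33 ± 0.12, 0.511), the laminin chain Lamb1 (-0.36 ± 0.16, 0.696) and Lox, the founding lysyl oxidase (-0.18 ± 0.10, 0.789).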

How the data were processed

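Per the labels' protocols, E14 RNA had been prepared for Affymetrix whole-transcript arrays. Values were deposited in log2 units for each transcript cluster, and their near-equal array medians are those of values normalized between arrays. RMA, limma and R 3.1.1 are named, with no role or order, in the submitters' processing notes. Normalization between arrays removes shifts shared by most genes, and no scanner files were used here. Of 41345 clusters, 23521 had 1 gene, 1814 several and 16010 none. The brightest cluster stood for a gene, which gave 22180 genes. The 44 collagen genes had 47 clusters with 1 gene, of which Col1a2, Col5a1 and Col6a1 had 2 each. For RA in shCT, their brighter and dimmer clusters gave log2 differences of 0.36 and 0.03 (Col1a2), -0.05 and 0.20 (Col5a1) and 0.36 and 0.03 (Col6a1). A further cluster shared by several genes was left out.

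One limma 3.58.1 fit (R 4.3.3, statmod 1.5.0) over 12 arrays had a mean per group and 7 contrasts, with Benjamini-Hochberg adjustment over 22180 genes and a threshold of 0.05. Errors are standard errors of this fit, except for the Loxl2 clusters, which came from the same model fitted to all 41345 clusters. The fit was also run on simulated data whose noise was independent between genes and arrays. In the deposited data 49.4% of the variance within groups lay on 1 axis, so that run does not test the calls under shared variation. Correlations were tested by permutation, exact within constructs and with 100000 resamples over all arrays. The collagen genes, the lists and the alternatives were chosen with earlier results of these data known. Genes given on every array were those past the threshold in any contrast, those with the 2 smallest p-values per contrast and the 3 brightest, besides Col4a2, added after its values were seen as the partner of Col4a1.

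The labels give replicate numbers but no pairing. Within shLOXL2, deviations from the group means were compared between RA and untreated arrays. Those of the same number correlated at 0.558, 0.248 and 0.216 for numbers 1, 2 and 3, and were taken as paired. This pairing is uncertain, as RA array 2 correlated at 0.369 with untreated array 3. The main fit did not use it, so its counts for RA in shLOXL2 are unpaired. It called 768 genes there, against 1624 with the fixed and 1675 with the random block within constructs. Alternatives were the replicate number as a block, over all arrays or within constructs, a variance trend with robust moderation, brighter genes only, a further quantile normalization, centring, the mean of clusters, all clusters, only the groups compared, and leaving out arrays.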

Additional observations from a re-analysis of the deposited data

How the results depend on the processing

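The counts of collagen genes past the limma threshold were recomputed 138 times, and 119 stayed within 1.5 times the count reported while 19 moved, all for RA. For knockdown in either RA state and for the difference of RA responses, no gene of any kind was called in any setting. Those collagen counts could therefore not move, and the 119 do not measure stability. The only reported count above 0, that for RA on average, was among those that moved. For RA in shCT (0), the random replicate block within constructs gave 3 (Col2a1, Col4a5 and Col6a5), the fixed one, chosen after seeing the data, 2 (Col2a1 and Col6a5), and brighter genes only 1 (Col2a1, adjusted p = 0.0293). For RA in shLOXL2 (0), both blocks within constructs gave 1. For RA on average (2), brighter genes only gave 1 (Col2a1, with 17 collagen genes left), a further quantile normalization 0, centring 1 (Col6a4, -0.27, adjusted p = 0.0397), all clusters 0 and, chosen after seeing the data, leaving out both shCT arrays numbered 1 gave 1 (Col6a5). With any 1 array left out the count for RA on average ran from 0 to 3. The cause of these moves was not tested, except that the first setting tests fewer genes and all clusters adjusts over more. The replicate number as a block over all arrays gave 2 for RA on average and 0 in the other 6 comparisons. That block also ties shLOXL2 to shCT arrays of the same number, whose deviations correlated at -0.548 to 0.197, so the pairing within shLOXL2 is matched by the blocks within constructs above. In shCT cells, arrays of the same number correlated at 0.363, 0.039 and 0.631. Their numbers were not taken as paired, although 0.363 and 0.631 are above the shLOXL2 values for numbers 2 and 3. Of 1621 values of single genes, 12 gained and 22 lost a call, and 0 called genes changed sign. In these alternatives 0 values of the genes described array by array passed for knockdown or for the difference of RA responses. With 3 arrays per group and no background level set, what can be seen of the dim collagen genes is limited.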
